A study of Mus musculus with 36 samples.

Results

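Sgk1, Sgk2 and Sgk3 encode the serum- and glucocorticoid-regulated kinases, a small family of serine/threonine protein kinases, and their mRNA abundance was measured in the striatum of 4 inbred mouse strains after morphine. All probe sets whose annotated gene is one of the 3 kinases were taken, matched by symbol and Entrez identifier. These 3 of 18193 genes with a probe set of a single gene symbol were covered by 5 of the 45101 probe sets on the array: 1416041_at for Sgk1, 1418739_at for Sgk2, and 1420918_at, 1420919_at and 1450036_at for Sgk3. The family was chosen on the morphine response of Sgk1 and Sgk3 on these same arrays, so that their differences between morphine and saline are given as a description, without a test. Strain effects were tested. Differences between strains in the response were tested as well, and these tests use the same morphine and saline arrays as the choice of the family and may not be fully independent of it.

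Striatal RNA of adult male mice, aged 8 to 10 weeks, was measured on 36 Affymetrix whole-genome mouse arrays. C57BL/6J, SWR/J, 129P3/J and DBA/2J mice each formed an acute morphine, a chronic morphine and a saline group, which gave 12 groups of 3 arrays. RNA was pooled from 3 mice per array, and a group of 9 mice thus yields a spread between 3 pools. Acute groups were injected with saline for 4 days and received a single dose of 20 mg/kg of morphine on day 5. Chronic groups were given morphine 3 times daily. Each injection held 10 mg/kg on the first day, rising to 20 mg/kg on the next and to 40 mg/kg for days 3 and 4, and day 5 brought a final 40 mg/kg. Saline groups were injected with saline on the same schedule, and every mouse was killed 4 hours after its final injection. All injections were subcutaneous, and every acute and saline mouse thus carried the injection history of the chronic groups.

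SGK kinases belong to the AGC family, together with the AKT and ribosomal S6 kinases. Phosphoinositide 3-kinase signaling activates them through phosphorylation by mTORC2 and by PDK1, and their substrates include the NDRG proteins, FOXO transcription factors and NEDD4-type ubiquitin ligases that control ion channels and transporters. SGK1 is controlled largely through its transcription, which glucocorticoids and serum induce, and its protein is short-lived. SGK3 carries a PX domain that binds phosphoinositides on endosomes. In rodent brain Sgk1 is expressed in neurons and in oligodendrocytes.

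The glucocorticoid receptor binds a palindrome, here written AGAACANNNTGTTCT, and the annotated promoters were searched for it after they had been read. RefSeq windows ran from 250 bases before to 50 bases after an annotated start (GRCm38.p6). None was available for Sgk2 or Sgk3, which could not be searched, and 6 were matched for Sgk1. One of these held the full palindrome, on the plus strand of chromosome 10 at chr10:21993701-21993715, 189 bases before the start at 21993890. That window, chr10:21993640-21993939, is shown because it is the Sgk1 window with the full site, which stands in capitals.
Sgk1 window: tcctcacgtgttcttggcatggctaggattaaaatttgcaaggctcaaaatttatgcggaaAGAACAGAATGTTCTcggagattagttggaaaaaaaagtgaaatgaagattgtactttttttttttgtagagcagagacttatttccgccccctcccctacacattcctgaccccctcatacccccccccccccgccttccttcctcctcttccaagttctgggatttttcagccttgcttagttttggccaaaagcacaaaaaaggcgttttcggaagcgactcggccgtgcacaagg
Of 32851 windows of the same length over the genes with a window, 3 (0.00913%) held the full palindrome, in 3 of 27025 genes. The motif TGTTCT, on either strand, lay in 6233 windows (19%). It also forms part of the full palindrome, and it occurred 3 times in the window shown, 2 of them within the palindrome and 1 apart from it at chr10:21993648-21993653, left in lower case. It occurred 1 time each in the windows of the Sgk1 starts at 21882184 and 21992223. A match of letters is a description of the sequence and says nothing of binding in these mice.

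The values are signal intensities on a linear scale, and differences are given on the log2 scale. All 5 probe sets passed the filter on low signal, an intensity above 99.7 on at least 9 of 36 arrays, as did 27212 probe sets in all, and each exceeded it on all 36 arrays. Sgk1 (chr10:21882184-21999903, GRCm38.p6) had intensities of 852 to 2707, and its mean log2 signal of 10.51 lay at percentile 93.8 of the detected probe sets. Sgk2 (chr2:162987327-163014139) ranged from 161 to 261. Sgk3 (chr1:9798130-9902570) ranged from 103 to 283 in 1420918_at, from 228 to 561 in 1420919_at and from 178 to 494 in 1450036_at. Intensities of different probe sets depend on their probes and give no order of abundance between the kinases.

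Array medians lay between 119 and 133. A pair of saline arrays, 129P3/J replicate 3 and DBA/2J replicate 3, had far lower signal of the poly-A control RNAs than the rest, with centred log2 scores of -3.58 and -3.47 where the next lowest array had -0.86. Gapdh signal of the 3′ probe set was 0.72 above that of the 5′ one (log2) on C57BL/6J saline replicate 1, against at most 0.12 on the other arrays. Without these 3 arrays, the strain, interaction and response tests of the Sgk probe sets kept their side of the threshold, and the differences between treatments averaged over strains kept their direction. A strain deviation near 0 changed sign in 3 cases, none of which passed the test: DBA/2J in 1420919_at (0.013 against -0.0095 with all arrays) and in 1450036_at (0.0090 against -0.021), and SWR/J in Sgk2 (0.015 against -0.011).

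Sgk1 signal was highest after acute morphine in C57BL/6J, where it was 2.28-fold the saline level, and it differed least from saline in 129P3/J. In C57BL/6J its intensity was 2707, 2239 and 2380.2 in the acute arrays and 1548, 1493 and 1218 in the chronic arrays, against 1083, 932 and 1205 in the saline arrays. All acute arrays of this strain lay above all chronic arrays, and all chronic arrays above all saline arrays. In SWR/J it was 1909.7, 1853 and 1608 in the acute arrays and 1692, 1497 and 1517 in the chronic arrays, against 1281, 1365 and 1194 in the saline arrays, and both morphine groups lay wholly above saline. In DBA/2J the values were 1574, 1517 and 1342 in the acute arrays and 1449, 977 and 1196 in the chronic arrays, against 855, 1260.1 and 852 in the saline arrays. Here the acute arrays lay above the saline arrays, while the chronic and saline arrays overlapped. In 129P3/J the intensities were 1850.4, 1442 and 1570.4 in the acute arrays and 1506, 1682 and 1814 in the chronic arrays, against 1422, 1631 and 1401 in the saline arrays, and all 3 groups overlapped.

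**Figure D1:**
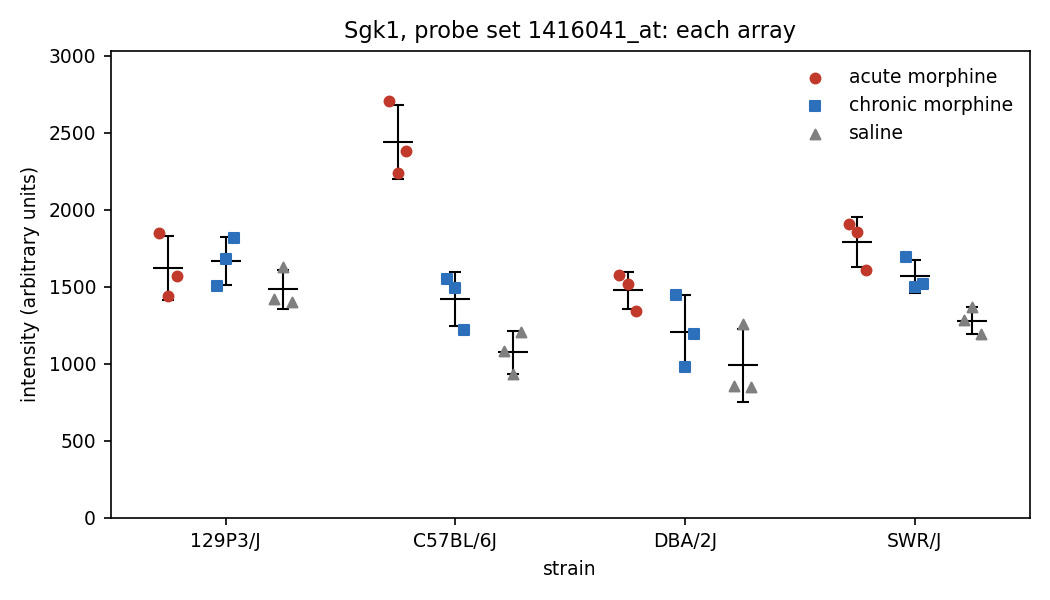
Intensity of Sgk1 (1416041_at, arbitrary linear units) on each of the 36 arrays, by strain and, within a strain, acute morphine, chronic morphine and saline from left to right; horizontal bars are means and error bars the SD of 3 arrays. The 3 acute C57BL/6J arrays, at 2239 to 2707, lie above every other array.

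As log2 differences from saline, the acute values of Sgk1 were 1.19 in C57BL/6J, 0.60 in DBA/2J, 0.48 in SWR/J and 0.12 in 129P3/J (SE 0.15 each). The chronic differences were 0.40, 0.29, 0.29 and 0.17 in the same order of strains and with the same SE. Chronic minus acute differed most in C57BL/6J, at -0.79, and was 0.045 in 129P3/J. Averaged over the 4 strains, Sgk1 was 0.60 (SE 0.073) above saline after acute morphine and 0.29 above it after chronic morphine. With treatment and replicate number as a random block, the SE of both differences was 0.10. Across the 12 groups the mean intensity spanned 2.47-fold, with acute C57BL/6J highest at 2442 and DBA/2J saline lowest at 989. Of the 11 pairs of neighbours in that order, only acute C57BL/6J and the next group, acute SWR/J at 1790.2, did not overlap in their arrays. The other 10 pairs did.

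Whether the strains differed in the response of Sgk1 was tested with limma, with Benjamini-Hochberg adjustment over all detected probe sets. The 4 acute differences gave an unadjusted p of 0.000213, rank 7 of 27212 probe sets, and an adjusted p of 0.625. The test of strain by treatment interaction gave an unadjusted p of 0.00117, rank 49, and an adjusted p of 0.644. The chronic differences gave an adjusted p of 1. No Sgk probe set and no other passed any of these 3 tests, a background of 0% of detected probe sets in each, although 1399 had an unadjusted p under 0.05 for the interaction, 1941 for the acute response and 940 for the chronic response. The strain difference in the acute response of Sgk1 therefore did not hold up after correction over the array in this fit. Its adjusted p ranged from 0.304 to 1 when each array was left out in turn, and was 0.0822 with treatment and replicate number as a random block. For these arrays the paper names Sgk, the older symbol of Sgk1, among genes with a significant interaction. That call came from a ranking over several normalizations and a smaller set of detected probe sets.

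Sgk3 was higher than saline after acute morphine in all 4 strains and in all 3 of its probe sets. In 1450036_at, the probe set with the least spread between replicates, C57BL/6J had 494, 479 and 459.5 in the acute arrays and 445, 468 and 369 in the chronic arrays, against 349, 399 and 309 in the saline arrays. DBA/2J had 484, 422 and 449 in the acute arrays and 350.1, 291 and 326 in the chronic arrays, against 283, 318 and 221 in the saline arrays. The acute arrays of both strains lay above their saline arrays, while the chronic arrays overlapped them. SWR/J had 358, 355 and 355 in the acute arrays and 263, 308 and 301 in the chronic arrays, against 251, 221 and 178 in the saline arrays. In 129P3/J the values were 385, 407 and 419.5 in the acute arrays and 361, 426 and 397 in the chronic arrays, against 287, 322 and 256 in the saline arrays. In these strains both morphine groups lay wholly above saline.

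In 1420918_at, the probe set of lowest signal, the intensities in 129P3/J were 224, 175 and 237 in the acute arrays and 235, 169.8 and 186 in the chronic arrays, against 103, 134 and 128.3 in the saline arrays. In C57BL/6J they were 273, 217 and 219 in the acute arrays and 229.9, 232 and 242 in the chronic arrays, against 109, 166 and 163 in the saline arrays. Acute and chronic arrays of these strains overlapped, and none reached down to saline. In DBA/2J they were 283, 207 and 224 in the acute arrays and 192, 180.0 and 162 in the chronic arrays, against 135, 141 and 144 in the saline arrays, with 3 separate ranges in the order acute, chronic and saline. In SWR/J they were 197, 191 and 154 in the acute arrays and 156, 137 and 113 in the chronic arrays, against 119.6, 129 and 112 in the saline arrays, and only the acute arrays lay wholly above saline.

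In 1420919_at, the probe set of highest signal, 129P3/J had 381, 408 and 472 in the acute arrays and 489, 409 and 401 in the chronic arrays, against 345, 343 and 306 in the saline arrays. C57BL/6J had 469, 437 and 388 in the acute arrays and 396, 416 and 561 in the chronic arrays, against 342, 385 and 339.7 in the saline arrays. Both morphine groups again lay above saline in these strains. DBA/2J had 429, 406 and 496 in the acute arrays and 396, 297 and 323 in the chronic arrays, against 366, 380.4 and 293 in the saline arrays, where only the acute arrays were clear of saline. SWR/J had 371, 396 and 399 in the acute arrays and 367, 335 and 308 in the chronic arrays, against 350.4, 246 and 228 in the saline arrays, and here too the chronic arrays overlapped saline.

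**Figure D2:**
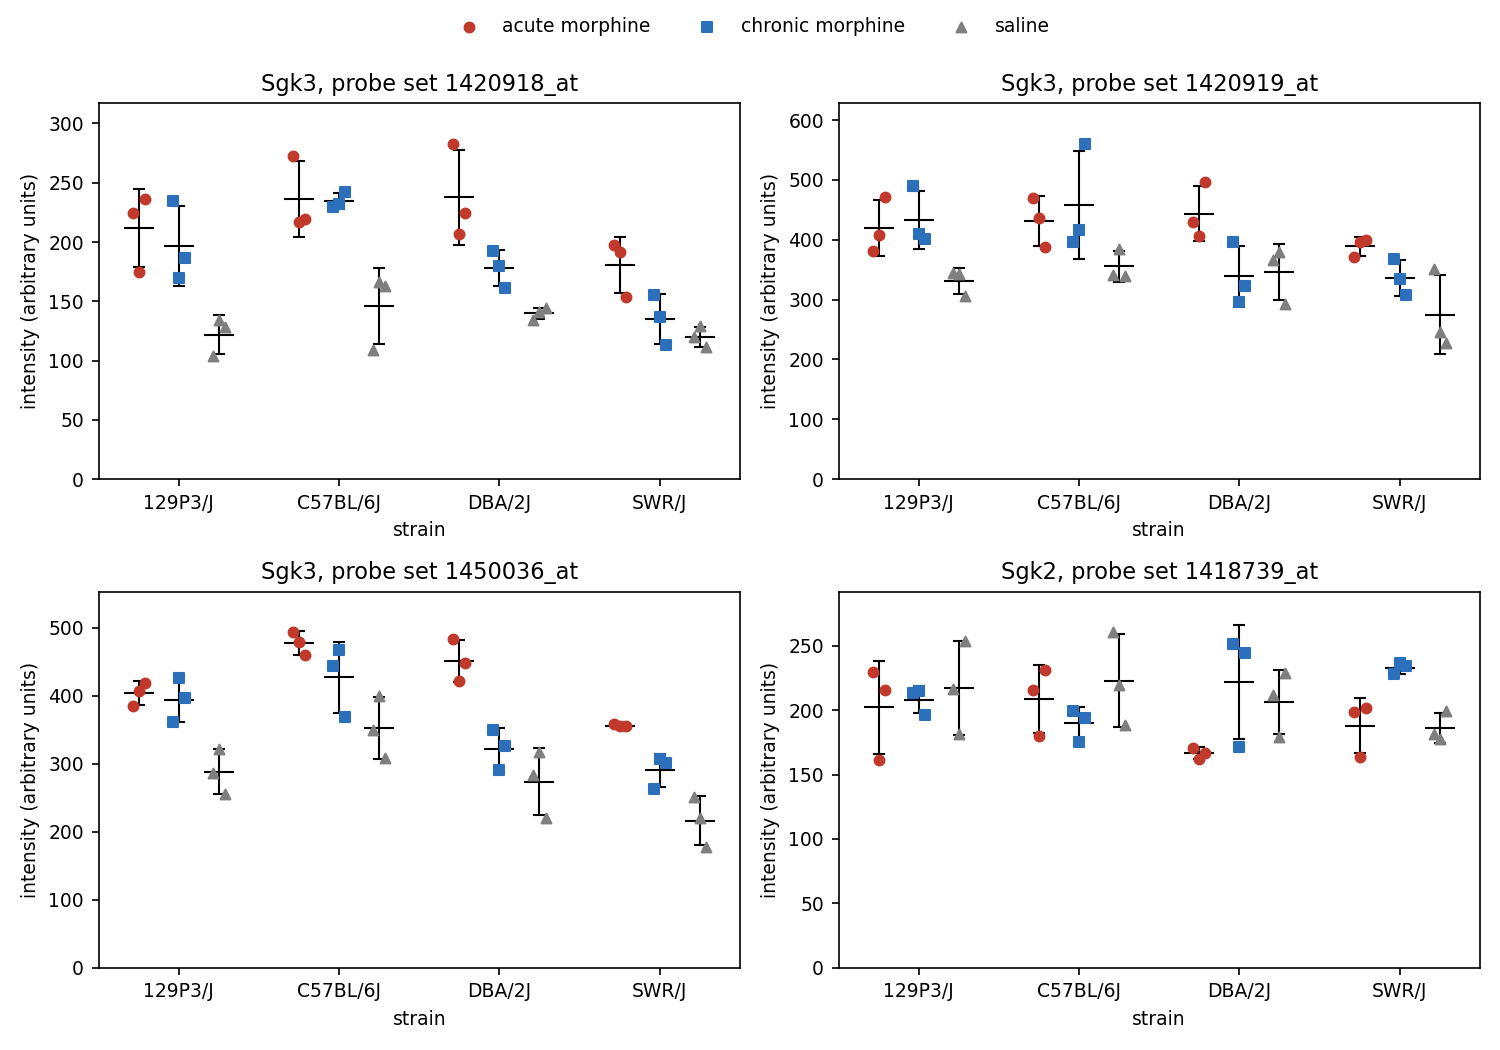
Intensity (arbitrary linear units) of the 3 Sgk3 probe sets and of Sgk2 on each array, by strain and, within a strain, acute morphine, chronic morphine and saline from left to right; horizontal bars are means and error bars the SD of 3 arrays. In each Sgk3 panel the acute arrays of a strain lie above its saline arrays, from 154 to 283 against 103 to 166 in 1420918_at, and in the Sgk2 panel the chronic SWR/J arrays lie above, and the acute DBA/2J arrays below, the others of their strain.

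Averaged over the strains, the acute log2 difference of Sgk3 was 0.71 (SE 0.080) in 1420918_at, 0.38 (SE 0.074) in 1420919_at and 0.60 (SE 0.064) in 1450036_at. The chronic differences were smaller in each, at 0.48, 0.25 and 0.35. With the random block the SE of the acute differences was 0.10, 0.10 and 0.080 in the same order of probe sets. Within strains the acute difference ran from 0.58 in SWR/J to 0.79 in 129P3/J for 1420918_at, from 0.28 in C57BL/6J to 0.53 in SWR/J for 1420919_at, and from 0.44 in C57BL/6J to 0.74 in DBA/2J for 1450036_at. The probe sets thus placed the strains in different orders. Chronic minus acute was negative in DBA/2J in all 3 probe sets, at -0.41, -0.40 and -0.49, and in SWR/J, at -0.42, -0.21 and -0.30. In 129P3/J and C57BL/6J it lay between -0.17 and 0.072. No Sgk3 probe set passed the tests for a strain difference in the response. The adjusted p was at least 0.835 for the acute response, 1 for the chronic response and 0.998 for the interaction.

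Sgk2 had low signal and little spread across the groups, whose means differed by up to 1.40-fold. In SWR/J its intensity was 199, 164 and 202 in the acute arrays and 228, 236 and 235 in the chronic arrays, against 181, 177 and 199 in the saline arrays, and the chronic arrays lay above the others. In DBA/2J it was 171, 162 and 167 in the acute arrays and 251, 171 and 244 in the chronic arrays, against 211, 179 and 229 in the saline arrays, with the acute arrays below the others. In C57BL/6J the values were 215, 179.6 and 231 in the acute arrays and 199.7, 175 and 194 in the chronic arrays, against 261, 219 and 189 in the saline arrays. In 129P3/J they were 229.6, 161 and 216 in the acute arrays and 213, 215 and 196 in the chronic arrays, against 217, 181 and 253 in the saline arrays. In both of these strains the groups overlapped. Averaged over strains, the log2 difference of Sgk2 from saline was -0.12 for acute and 0.037 for chronic morphine (SE 0.074 each, or 0.096 with the random block). Its adjusted p was 0.918 for a strain difference in the acute response, 1 in the chronic response and 0.993 for the interaction.

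**Figure D3:**
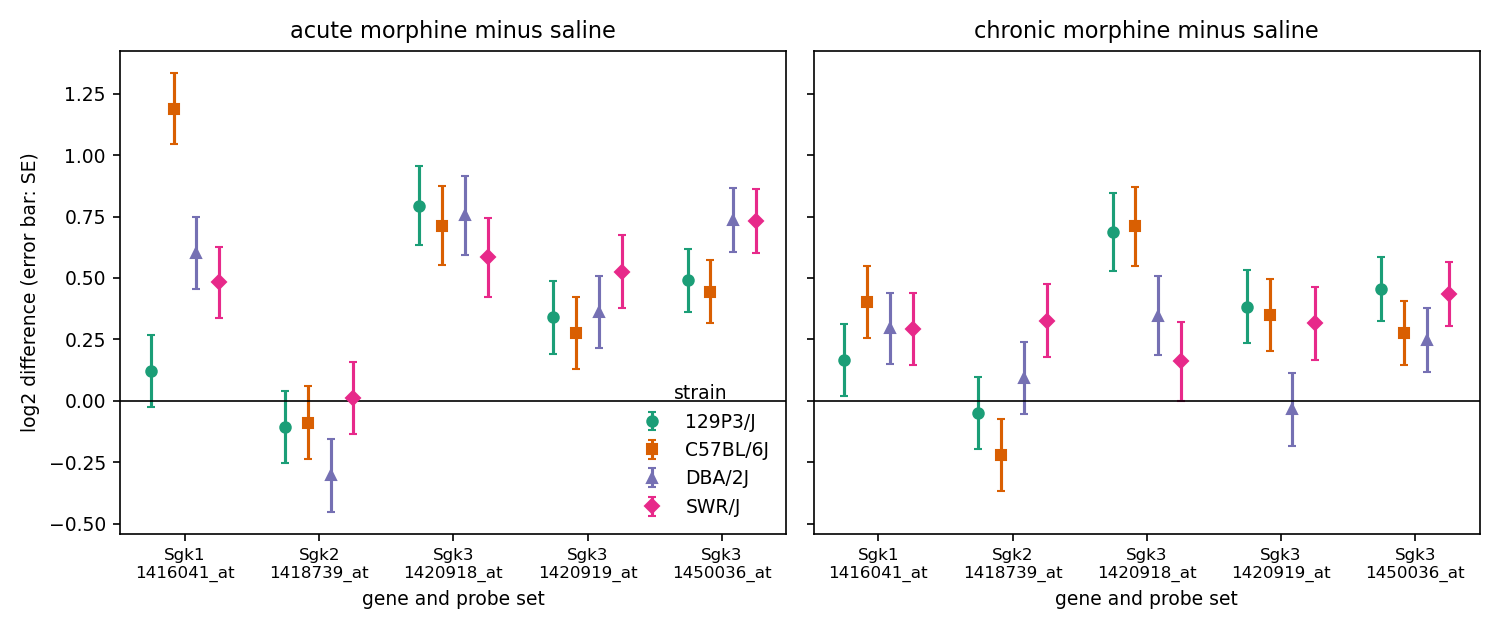
Log2 difference from saline after acute morphine (left) and chronic morphine (right) for each Sgk probe set in each strain, 3 arrays against 3; error bars are the SE of the limma fit. Sgk1 in C57BL/6J stands at 1.19 after acute morphine and 0.40 after chronic morphine, while 129P3/J stands at 0.12 and 0.17.

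Counts of probe sets whose morphine and saline arrays did not overlap are given beside the share of all detected probe sets, and nothing is read from them, since the morphine response chose the family. All 3 acute arrays exceeded all 3 saline arrays in 3 of 5 probe sets in 129P3/J (6.19% of all detected), and in 4 of 5 in C57BL/6J (5.45%), DBA/2J (15.5%) and SWR/J (7.24%). For chronic morphine this held for 3 in SWR/J (4.86%), 3 in 129P3/J (5.21%), 3 in C57BL/6J (6.52%) and 1 in DBA/2J (2.16%). The 3 Sgk3 probe sets were above saline in all 4 strains after acute morphine, as were 72 probe sets in all (0.265%). No Sgk probe set was so after chronic morphine (0.0698% of all).

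Averaged over the 3 treatments, the signal of Sgk1 and Sgk3 differed between strains. Sgk1 was lowest in DBA/2J, by 0.28 (SE 0.052) on the log2 scale below the mean of the 4 strains, with an adjusted p of 0.00025 in limma. Sgk3 was lowest in SWR/J, at -0.27, -0.19 and -0.30 in 1420918_at, 1420919_at and 1450036_at, with adjusted p of 0.00121, 0.0159 and 2.13e-05. It was highest in C57BL/6J, at 0.21, 0.13 and 0.27, with adjusted p of 0.011, 0.106 and 9.88e-05. Of the 5 probe sets 0 were called in 129P3/J at an FDR of 5%, against 9.22% of all detected probe sets, and there Sgk1 had the lowest unadjusted p (0.0237, at 0.12 above the mean). Called in SWR/J were 3 (9.7% of all), in C57BL/6J 2 (11.2%) and in DBA/2J 1 (8.53%). Within each of the 3 treatments the mean of Sgk1 was lowest in DBA/2J and that of every Sgk3 probe set lowest in SWR/J, but the highest strain changed. Sgk1 was highest in C57BL/6J after acute morphine and in 129P3/J after chronic morphine and saline, and 1420918_at and 1420919_at were highest in DBA/2J after acute morphine and in C57BL/6J otherwise. Less mRNA per cell, fewer cells of an expressing type and transcript variants that a probe set reads differently between strains cannot be told apart here. Sgk1 moreover rests on 1 probe set.

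**Figure D4:**
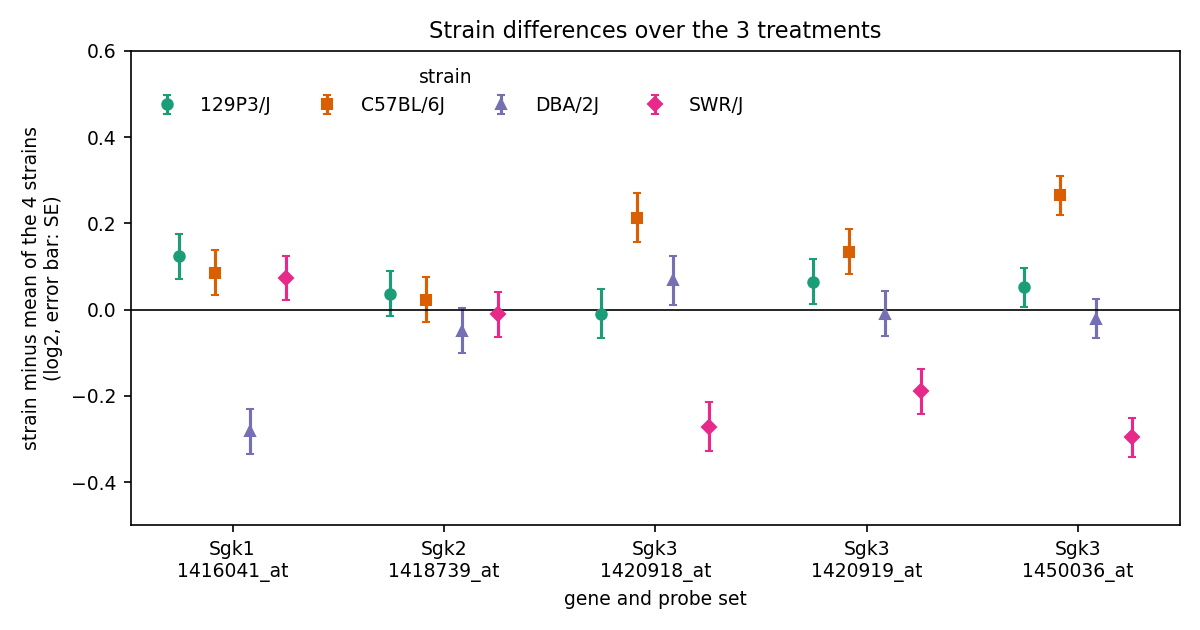
Log2 difference of each strain, averaged over its 9 arrays of all treatments, from the mean of the 4 strains for each Sgk probe set; error bars are the SE of the limma fit. DBA/2J stands at -0.28 in Sgk1, and in the 3 Sgk3 probe sets SWR/J lies at -0.19 to -0.30 and C57BL/6J at 0.13 to 0.27.

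The moderated F-test of the 4 strains passed an FDR of 1% for 3 of the 5 probe sets, with adjusted p of 0.0012 for Sgk1, 0.00161 for 1420918_at and 1.04e-05 for 1450036_at. In 1420919_at the adjusted p was 0.0299, or 0.00947 with treatment and replicate number as a random block, which passes. In Sgk2 it was 0.916. The share of all detected probe sets past the same threshold was 13.2%. The 3 calls held when any one array was left out. The lower level of 1420919_at in SWR/J did not pass 5% without SWR/J saline replicate 3 (adjusted p = 0.0694) or without SWR/J chronic replicate 3 (adjusted p = 0.05). Without SWR/J saline replicate 1 the strain effect of 1420919_at passed, at an adjusted p of 0.00279, and so did its higher level in C57BL/6J, at 0.034. Without SWR/J saline replicate 3 the adjusted p of the strain effect of 1420919_at was 0.0906.

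In the saline arrays alone, 1 of the 5 probe sets passed 1%, 1450036_at with an adjusted p of 0.00239, against 5.6% of detected probe sets. Its saline intensity averaged 217 ± 37 in SWR/J, 274 ± 49 in DBA/2J, 288 ± 33 in 129P3/J and 353 ± 45 in C57BL/6J (SD, n = 3 arrays each). SWR/J lay wholly below 129P3/J and C57BL/6J, and each pair of neighbours in this order overlapped. This call rested on single arrays: the adjusted p was 0.0195 without C57BL/6J saline replicate 2 and 0.0267 without SWR/J saline replicate 3. Sgk1 averaged 989 ± 235 in DBA/2J saline arrays, 1073 ± 137 in C57BL/6J, 1280.1 ± 86 in SWR/J and 1485 ± 127 in 129P3/J, with an adjusted p of 0.0199, or 0.00542 with the random block, which passes. One DBA/2J saline array, replicate 2 at 1260.1, lay far above the other 2, and without it the adjusted p was 0.00145. The adjusted p of Sgk1 was 0.0898 without 129P3/J saline replicate 2. It was 0.18 without the 3 saline arrays whose control probe sets stood apart, DBA/2J replicate 3 among them. The remaining probe sets had adjusted p of 0.275 to 0.725.

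Some cell type markers differed between strains and treatments as well, given here as summed intensities of fixed lists. The 7 measured of 8 oligodendrocyte markers summed to 20140.4 to 26895 in C57BL/6J, where Sgk3 was highest, against 17428 to 20849 in the other strains, and 6 of the 7 passed the strain test, against 13.2% of detected probe sets. The 7 microglial markers summed to 4848 to 6248 in C57BL/6J, against 3707 to 5185 elsewhere, and 4 of the 7 passed. The 5 measured of 7 endothelial markers summed to 1322 to 1705 in SWR/J, where Sgk3 was lowest, and to 1427 to 2243 elsewhere. Of these 5, 1 passed. Medium spiny neuron sums were 16215 to 19354 in C57BL/6J and 16808 to 20406 in SWR/J, astrocyte sums 14461 to 17352 and 14081 to 16465. In these lists 1 of 7 and 0 of 7 passed. In the choroid plexus and cortical lists 0 of 4 each passed, against the same 13.2%. The part of these cell types in the Sgk values was not tested.

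Between treatments, the 7 measured of 9 medium spiny neuron markers, which had mean log2 signals of 10.11 to 12.17, summed to 16215 to 19563 in acute, 16452 to 19022 in chronic and 16808 to 20406 in saline arrays. The oligodendrocyte sums were 18518 to 22665, 17428 to 23337 and 17822 to 26895 in the same order, and those of 4 measured cortical excitatory neuron markers 837 to 1947, 971 to 2695 and 463 to 1782. At an FDR of 5%, 2.59% of detected probe sets rose and 2.11% fell after acute morphine, and 1.36% rose and 3.37% fell after chronic morphine. Among the markers Cx3cr1, Aif1, Flt1 and Tek fell after acute morphine, by 0.27 to 0.52 on the log2 scale. The first 2 were among 7 microglial markers with a median difference of 0.0013, the others among 5 endothelial ones with -0.10. After chronic morphine Drd2, Rgs9, Mag, Cnp, Aqp4, Gja1 and Flt1 fell and Neurod2 rose by 0.59. The falls were 2 of 7 medium spiny neuron, 2 of 7 oligodendrocyte, 2 of 7 astrocyte and 1 of 5 endothelial markers. Median chronic differences of these lists were -0.11, -0.16, -0.062 and -0.15. Neurod2 was 1 of 4 cortical markers, whose median chronic difference was 0.71. Its list mates Neurod6, Slc17a7 and Tbr1 rose by 0.82, 0.77 and 0.65 without passing (adjusted p of 0.0525 to 0.0666 in limma). With the random block only Cx3cr1 (adjusted p = 0.0106) and Tek (adjusted p = 0.0384) still passed. In lists where none passed, the largest differences were those of Drd1, Drd2, Mog, Mobp, Gfap, Aldh1l1, Kl, Ttr, Slc17a7 and Tbr1 after acute and of P2ry12, Aif1, Ttr and Clic6 after chronic morphine. The part of these shifts in the Sgk values was not tested either.

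Treatment, strain and their interaction took up different shares of the variance of log2 signal. For Sgk1 they were 44.0%, 19.8% and 20.1%, and for Sgk2 11.9%, 2.80% and 27.8%. For Sgk3 treatment took 56.1%, 35.2% and 49.3% in 1420918_at, 1420919_at and 1450036_at, strain 19.9%, 20.9% and 32.6%, and the interaction 6.71%, 11.8% and 4.91%. The medians over detected probe sets were 9.90% for treatment, 9.72% for strain and 12.4% for the interaction. Nothing is read from the treatment shares beside this median, since the morphine response chose the family. Over the 36 arrays the Sgk3 probe sets correlated with each other at a Pearson r of 0.75 to 0.81, and within groups, after the group means were removed, at -0.0089 to 0.37. Sgk1 correlated with them at 0.38 to 0.54, and Sgk2 with all others at -0.28 to -0.059. These correlations share the arrays and the group means and are descriptions.

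Of 13223 other detected genes, those whose log2 signal followed Sgk1 most closely over the 36 arrays were Klf9 (r = 0.78), a zinc-finger transcription factor, Tsc22d3 (0.78), which encodes the glucocorticoid-induced leucine zipper protein, Pdk4 (0.76), a pyruvate dehydrogenase kinase, Slc2a1 (0.76), the glucose transporter of the blood-brain barrier, and Aff1 (0.75), a transcription elongation factor. Within groups their r with Sgk1 was 0.22 to 0.48. For Sgk3, represented by 1420919_at, they were Snx1 (0.81), a sorting nexin of endosomes, Fbxo21 (0.78), an F-box protein, Parp1 (0.74), a poly(ADP-ribose) polymerase, Plekhf1 (0.71), an endosomal protein, and Ranbp9 (0.71), a scaffold protein. Their within-group r was 0.58 to 0.70, while 1420918_at and 1450036_at followed 1420919_at within groups at 0.28 and 0.37. Genes most like these other Sgk3 probe sets were not sought. All points share the treatment and strain means, and the within-group values share the array.

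Other genes of the pathway were compared between treatments at the same threshold, at which 2.59% of detected probe sets rose and 2.11% fell after acute and 1.36% rose and 3.37% fell after chronic morphine. Of the kinases and regulators upstream of the SGKs, 19 of 20 were measured by a detected probe set. After acute morphine 1 of them rose, the insulin receptor gene Insr, by 0.23 (SE 0.058, adjusted p = 0.0234, or 0.213 with the random block), with intensities of 364 to 435 in acute and 296 to 394 in saline arrays. After chronic morphine none of the 19 passed (6 had an unadjusted p under 0.05), the largest differences being 0.19 (SE 0.086) for Igf1r and -0.13 (SE 0.052) for Mapkap1, an mTORC2 subunit. The median difference of the 19 was 0.016 after acute and -0.046 after chronic morphine, against 0.011 and 0.00012 over all detected probe sets. Strain effects passed for 4 of the 19, against 13.2% of detected probe sets (Pik3r4, Wnk1, Pik3r2 and Igf1r).

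Of the SGK substrates 16 of 18 were measured. Ndrg1, whose product is phosphorylated by SGK1, rose after acute morphine by 0.24 (SE 0.060, adjusted p = 0.0219, or 0.165 with the random block), at 1288 to 1633 in acute against 965 to 1526 in saline arrays. Foxo1, a transcription factor held in the cytoplasm by such phosphorylation, fell after chronic morphine by 0.24 (adjusted p = 0.0173, or 0.205 with the random block), at 768 to 1057 in chronic against 940.3 to 1455 in saline arrays. In each contrast the remaining 15 of the 16 did not pass. The median differences were 0.041 after acute and -0.019 after chronic morphine, and 3 of the 16 passed the strain test, against the same 13.2% (Cdkn1b, Pikfyve and Foxo3). Of the other AGC kinases 9 of 16 were measured, and Akt2 fell after acute morphine by 0.25 (adjusted p = 0.0135, or 0.159 with the random block) and Rps6ka6, of low signal, after chronic morphine by 0.27 (adjusted p = 0.0481, or 0.313 with the random block). The medians of this list were 0.00027 and -0.12, and no member passed the strain test (3 had an unadjusted p under 0.05). None of the 44 genes passed the interaction test, where 3 had an unadjusted p under 0.05.

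None of these 5 calls passed with the random block. Without the 3 saline arrays that stood apart, Foxo1 alone of them passed (adjusted p = 0.0198). Insr did not pass without 129P3/J saline replicate 1 or DBA/2J saline replicate 3, nor Ndrg1 without 129P3/J saline replicate 1, with adjusted p up to 0.0535 and 0.0515. Rps6ka6 did not pass in 23 of the 36 fits that left out 1 array. Foxo1 and Akt2 passed in all 36.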

How the data were processed

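Striatal RNA of 36 pools of mice was measured on 1-colour Affymetrix arrays, and GEO's labels gave the groups. The deposited intensities are model-based expression indices, for which the authors used dChip on normalized arrays (perfect match and mismatch probes); the lowest value is 6.69, and 2 were missing. Precision is limited by how many arrays there are. Log2 of the intensity was fitted in limma 3.58.1 (R 4.3.3) with 12 group means and 24 residual degrees of freedom, with empirical Bayes moderation. Adjustment by Benjamini-Hochberg ran over 27212 detected probe sets, at 1% for F-tests of strain and interaction and 5% for the strain deviations, contrasts and tests of the response by strain. The random block used duplicateCorrelation (statmod 1.5.0). Figures used Python 3.11.15, pandas 2.3.3 and matplotlib 3.10.9. Probe sets were named from GEO's platform annotation, and positions and promoters from RefSeq.

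The members and gene lists were chosen with earlier results of these data known. All Sgk probe sets were named, with the 5 genes most like Sgk1 and Sgk3 and, of each list, up to 4 genes past the threshold, or the 2 of largest change. Of a listed gene's detected probe sets with 1 gene symbol, the brightest was used. Fits were tested on simulated data. Alternatives covered the filter, a pseudocount of 16, quantile normalization, replicate blocks, a classical F-test, array weights, probe set choice and the omission of arrays; the omission of 3 saline arrays was chosen after seeing the data.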

Additional observations from a re-analysis of the deposited data

How the results depend on the processing

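Settings compared were no filter, a pseudocount of 16, a further quantile normalization and replicate number as a fixed block. Of 69 results on the Sgk probe sets in each, none that was tested changed its side of the threshold. Nor did any of 18 under a classical F-test. No strain deviation past the threshold changed sign, and treatment differences moved by less than the residual SD. Signs of differences near 0 were not compared. Array weights changed 1 of 21, the strain effect of 1420919_at (adjusted p = 0.00615 against 0.0299).

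Replicate numbers are shared between groups. Arrays of the same treatment and number in different strains deviated together (mean r 0.264 over 54 pairs, -0.47 to 0.66), those of the same strain and number did not (mean r 0.031 over 36 pairs), and no source says what the number marks. With treatment and number as a random replicate block (consensus correlation 0.241), 1277 acute calls over all probe sets became 184 and 1288 chronic calls 90. The strain effect of 1420919_at then passed (adjusted p = 0.00947), as did that of Sgk1 in saline arrays (0.00542), so that 2 probe sets were called there where 1 had been. The pathway counts became 0 for acute rises, 0 for acute falls and 0 for chronic falls with the block, against 2, 1 and 2. With the mean of all probe sets of a gene, 1 rose and 4 fell after acute morphine, and without the 3 saline arrays 0 and 0. Their causes were not tested.

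Leaving out each array in turn gave 0 to 2 probe sets with a strain effect in saline arrays, 0 to 3 pathway genes that rose after acute morphine and 1 to 7 that fell after chronic morphine. The acute difference of Sgk1 then lay between 0.57 and 0.65 and its level in DBA/2J between -0.33 and -0.25. With 3 arrays a group, a difference within a strain carried an SE of 0.15 for Sgk1, and signal near the filter limits genes such as Rps6ka6.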
